A study of Homo sapiens with 8 samples.

Results

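The distal end of the long arm of human chromosome 19, chr19:51400001-59128983 on hg19 (bands 19q13.41, 19q13.42 and 19q13.43), was examined as 773 tiles of 10 kb, of 309579 tiles in the genome. The tiles were chosen by position alone, the last tile is 8983 bp long, and the whole region measures 7.73 Mb. The cells were PC9, an established line of human lung adenocarcinoma driven by a mutated EGFR. H3K9me3 was profiled by ChIP-seq, which sequences the DNA bound to histones carrying the mark, in 1 library for each of 3 states. DTP + TSA cells were persisters kept in 1 µM erlotinib for 8 days and given 50 nM trichostatin A (TSA), an inhibitor of histone deacetylases, for 5 hours on day 8. DTP (drug-tolerant persister) cells survived 1 µM erlotinib, an inhibitor of the EGFR kinase, for 8 days. Parental cells were untreated. All 3 are the same cell line, and the 2 persister states both carry erlotinib, so TSA was set against a drug-treated reference and not against untreated cells.

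H3K9me3 is laid down by methyltransferases such as SETDB1, is bound by HP1 proteins and marks compacted, mostly silent chromatin. Many of the zinc finger genes of chromosome 19 encode KRAB proteins, which bind sequences within transposable elements and recruit TRIM28 and SETDB1 to them. The clusters that hold these genes are themselves known to carry long H3K9me3 domains in many human cell types. A RefSeq gene table on GRCh38.p14 places 106 zinc finger genes (symbols beginning ZNF, ZSCAN or ZFP) among the 260 protein-coding genes of the 3 bands, of 258 such zinc finger genes on the chromosome. Band 19q13.43 holds 60 of them among 90 protein-coding genes, with 5 NLRP genes, relatives of inflammasome sensors. Band 19q13.41 holds 29 among 67, together with 11 kallikreins (KLK, secreted serine proteases), 8 SIGLEC genes (receptors for sialic acid) and 3 formyl peptide receptors (FPR1 to FPR3). Band 19q13.42 is the poorest in zinc finger genes, with 17 among 103, and holds 10 LILR and 7 KIR genes, receptors of leukocytes and natural killer cells, and 4 NLRP genes. These counts join bands of the same name on GRCh38 and hg19, and no gene was placed on a tile.

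Each library is represented by the authors' list of enriched intervals. With 1 library per state no difference below has a replicate check, no test between states could be made, and no p-value is given. Shares of tiles, intervals or borders carry exact Clopper-Pearson 95% intervals, which cover counting error only; neighbouring tiles can lie under the same interval. Depth is unknown from the lists. The full lists held 53000 intervals in DTP + TSA, 47866 in DTP and 23842 in Parental, and outside the region they covered 5.69%, 5.24% and 3.96% of the genome. How far depth or the calling threshold moved these numbers was not tested.

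Distal 19q was densely marked in every state, though less so than the zinc finger band 19p12. Intervals covered 44.9% of it in DTP + TSA (3.47 Mb), 37.9% in DTP (2.93 Mb) and 39.5% in Parental (3.05 Mb). Set against stretches of the same length at the ends of the other chromosome arms, it ranked 1 of 41 in each library. Those ends had 14.6%, 7.86% and 5.62% in DTP + TSA, DTP and Parental. Band 19p12 had 54.9%, 55.6% and 90.2% in the same order of libraries. Bands 19q13.12 and 19q13.31 together had 36.0%, 34.7% and 43.1%, which in Parental was above distal 19q. DTP covered 0.96 times the Parental length here and 0.95 times on the rest of chromosome 19, whereas on the other chromosomes together it covered 1.36 times. In the zinc finger band 19p12 it covered 0.62 times, and in 19q13.12 and 19q13.31 together 0.805 times. DTP + TSA covered 1.18 times the DTP length, against 1.26 on the rest of chromosome 19 and 1.07 on the other chromosomes. The region thus differed less between states in covered length than in the number of its intervals, which was 378 in DTP + TSA, 228 in DTP and 120 in Parental. With only as many of the strongest intervals in each list as Parental holds, the number in DTP was 1.18 times that in Parental, against 1.9 times with the full lists, and DTP was lower than Parental by at least 20 percentage points in 14.7% of tiles.

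A tile was called marked when at least 50% of it was covered. DTP + TSA had 342 marked tiles, DTP 286 and Parental 305, and 266 tiles were marked in all 3 libraries, of 372 marked in any. Completely covered tiles numbered 145 in DTP + TSA, 152 in DTP and 219 in Parental. Empty tiles numbered 225 in DTP + TSA, 355 in DTP and 402 in Parental, and 193 tiles were empty in all 3. Partly covered tiles numbered 206 in DTP + TSA, 132 in DTP and 66 in Parental, the most in DTP + TSA. By length, 2485 kb were covered in all 3 libraries, which is 63.0% of the 3.94 Mb covered in any of them.

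**Figure D1:**
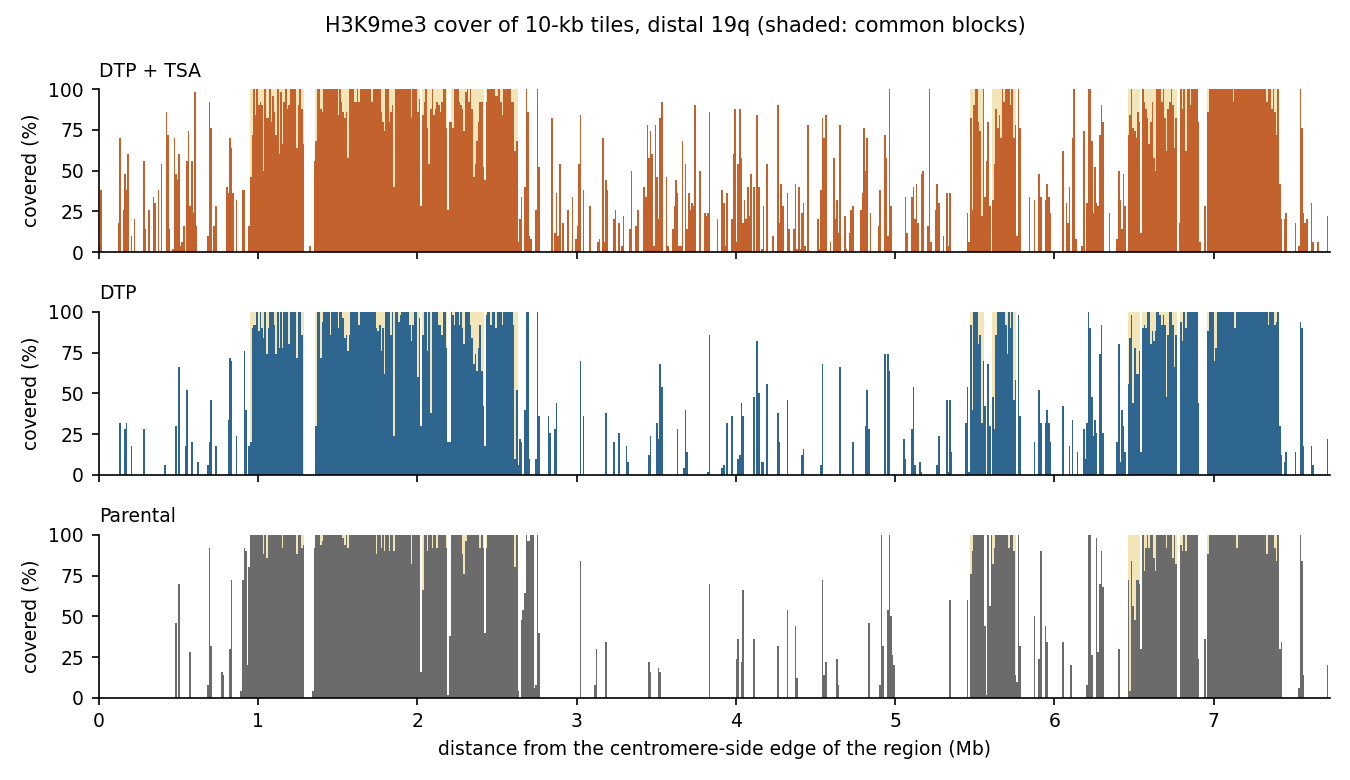
Share of each 10-kb tile covered by H3K9me3 intervals (vertical axis, %) against distance from the centromere-side edge of the region (horizontal axis, Mb), with 1 panel each for DTP + TSA, DTP and Parental and 1 bar per tile. Shading marks the 11 common blocks, which hold the densest cover, while the unshaded stretches hold more partly covered tiles in DTP + TSA (206 in the whole region) than in DTP (132) or Parental (66).

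Marked tiles formed long unbroken blocks. A block was a run of at least 5 tiles marked in the library, and a common block was a run of at least 5 tiles whose cover, averaged over the 3 libraries, was at least 50%. There were 13 blocks in DTP + TSA with 2.62 Mb, 13 in DTP with 2.42 Mb and 11 in Parental with 2.7 Mb. The 11 common blocks held 267 tiles and 2.67 Mb, and 249 of these tiles were marked in all 3 libraries. In 19q13.41 they lay at chr19:52350001-52690000 (340 kb), chr19:52760001-53420000 (660 kb) and chr19:53430001-53590000 (160 kb). In 19q13.42 they lay at chr19:53610001-53820000 (210 kb) and chr19:53830001-54030000 (200 kb), so that the first 5 blocks followed one another with gaps of no more than 70 kb. In 19q13.43 a pair lay at chr19:56870001-56960000 (90 kb) and chr19:57010001-57160000 (150 kb). The last group, also in 19q13.43, lay at chr19:57860001-57940000 (80 kb), chr19:57950001-58170000 (220 kb), chr19:58190001-58300000 (110 kb) and chr19:58360001-58810000 (450 kb). In the GRCh38 gene order the kallikrein, SIGLEC and FPR genes of 19q13.41 come before its main run of zinc finger genes, and on hg19 the first 950 kb of the region hold no common block.

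Inside the common blocks cover was slightly lower in both persister states than in Parental. It was 89.98% in DTP + TSA, 90.25% in DTP and 96.3% in Parental. DTP lay below Parental in 10 of 11 blocks, with a median difference of -5.94 percentage points and a range of -18.4 to 10.25. DTP + TSA lay below DTP in 6 blocks and above it in 5, with a median difference of -1.65 points and a range of -4.91 to 10.25. Since the blocks were chosen for high mean cover over these same libraries, the values describe the blocks and do not show that they were stable.

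The blocks were not alike. The 450-kb block at chr19:58360001-58810000 had the highest cover, 98.1% in DTP + TSA, 97.9% in DTP and 98.8% in Parental. The 660-kb block, the longest, had 93.9% in DTP + TSA, 92.6% in DTP and 98.6% in Parental. The 90-kb block at chr19:56870001-56960000 had 74.9% in DTP + TSA, 77.8% in DTP and 96.2% in Parental, which was the largest shortfall of DTP against Parental. The 80-kb block at chr19:57860001-57940000 was the exception in the other direction, with 80.2% in DTP + TSA, 70% in DTP and 59.8% in Parental. The number of intervals overlapping the blocks summed to 143 in DTP + TSA, 115 in DTP and 59 in Parental. The first block held 25 intervals in DTP + TSA, against 18 in DTP and 6 in Parental. Per length, the 450-kb block was split least in each library, with 1.56 intervals per 100 kb in DTP + TSA, 1.11 in DTP and 1.11 in Parental.

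**Figure D2:**
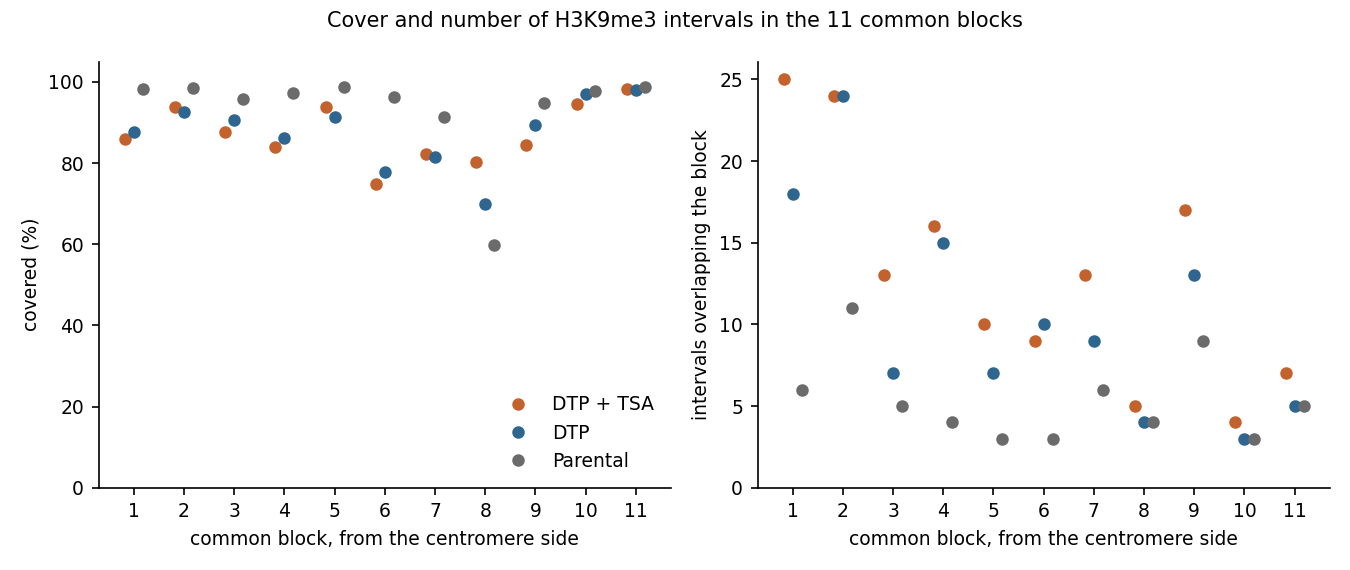
Cover (left, %) and number of overlapping H3K9me3 intervals (right) in each of the 11 common blocks, numbered along the horizontal axis from the centromere side, with 1 point for each of DTP + TSA, DTP and Parental. DTP lies below Parental in cover in 10 of 11 blocks, and block 8 runs the other way; block 1 shows the widest spread in interval number, with 25, 18 and 6.

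Intervals of the region were shorter in DTP + TSA and DTP than in Parental. Their median length was 4600 bp in DTP + TSA, 5300 bp in DTP and 10100 bp in Parental, and outside chromosome 19 it was 2400 bp, 2400 bp and 3800 bp. The length above which intervals hold 50% of the interval length (N50) was 16.2 kb in DTP + TSA, 32.2 kb in DTP and 80 kb in Parental. Intervals over 50 kb numbered 8 in DTP + TSA, 11 in DTP and 17 in Parental, and held 24.2%, 31.97% and 60.1% of the interval length in those libraries. Intervals of up to 2 kb numbered 69 in DTP + TSA, 38 in DTP and 3 in Parental.

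**Figure D3:**
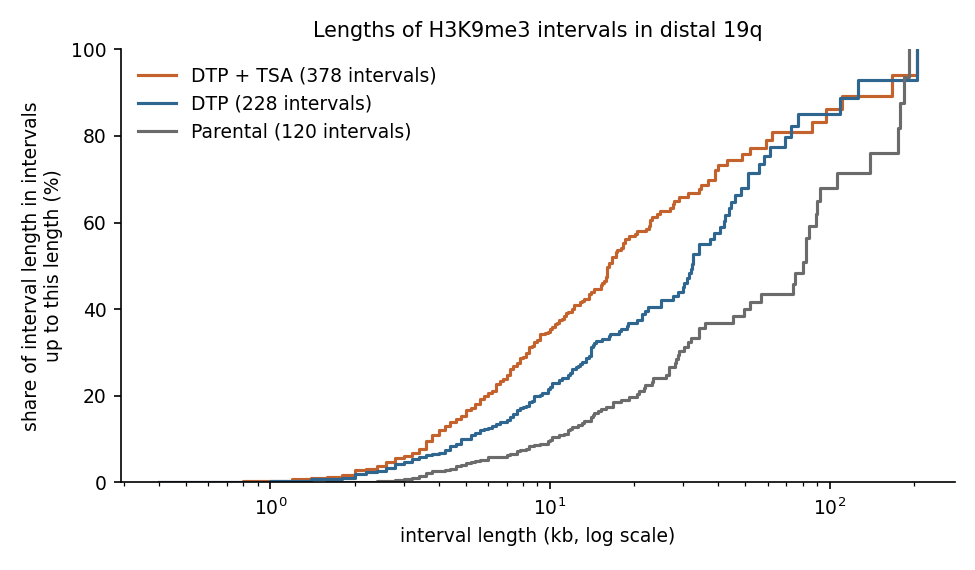
Share of the summed interval length (vertical axis, %) held by intervals up to a given length (horizontal axis, kb, log scale) in the region, with 1 line each for DTP + TSA (378 intervals), DTP (228) and Parental (120). The Parental line lies furthest to the right, with an N50 of 80 kb against 16.2 kb in DTP + TSA and 32.2 kb in DTP.

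The longest interval was nearly the same stretch in every library. It ran over chr19:58528601-58733600 in DTP + TSA (205.0 kb), chr19:58539601-58744600 in DTP (205.0 kb) and chr19:58546001-58738600 in Parental (192.6 kb), all within the 450-kb block. Its mean signal, the authors' own value for the interval, stood above that of 99.2% of all intervals in DTP + TSA, 98.8% in DTP and 97.9% in Parental. The other 4 longest Parental intervals were each cut in both persister states. The one at chr19:53837601-54013200 (175.6 kb) lay in 7 pieces in DTP + TSA and 5 in DTP, which still covered 96.0% and 96.8% of it. The one at chr19:52962201-53140600 (178.4 kb) lay in 5 pieces in DTP + TSA and 4 in DTP. The one at chr19:52800401-52939800 (139.4 kb) lay in 6 pieces in DTP + TSA and 3 in DTP, and the one at chr19:58361201-58545200 (184.0 kb) in 2 and 3. The 2nd to 5th longest intervals of DTP + TSA lay at chr19:58361401-58527800, chr19:53256001-53366800, chr19:52807001-52904400 and chr19:53031001-53117400, and measured 86.4 to 166.4 kb. Those of DTP lay at chr19:58412201-58538600, chr19:53031201-53140400, chr19:58227401-58304400 and chr19:53931001-54003800, and measured 72.8 to 126.4 kb. Each of these 8 was at least 95% covered in both other libraries.

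Breaks inside long Parental domains were frequent and short. Of the 61 Parental intervals of at least 10 kb in the region, 38 lay in 2 or more pieces in DTP + TSA (62.3%, 95% interval 49.0 to 74.4) and 33 in DTP (54.1%, 40.8 to 66.9). The pieces covered 89.8% of the Parental length in DTP + TSA and 89.0% in DTP. On the rest of chromosome 19 a like share was broken, 61.99% of 221 in DTP + TSA and 62.4% in DTP, but the pieces covered 71.1% and 72.5%. On the other chromosomes 29.6% of 1667 were broken in DTP + TSA and 28.4% in DTP, with 51.1% and 52.0% covered. Among Parental intervals of 10 to 30 kb alone, those of distal 19q were 82.6% covered in DTP + TSA and 78.2% in DTP, against 66.8% and 67.1% on the rest of chromosome 19 and 45.8% and 47.0% on the other chromosomes. Among those of at least 30 kb, the broken share in DTP was 68% of 25 here (46.5 to 85.1). On the rest of chromosome 19 it was 93.8% of 81 (86.2 to 98.0). It was 68.4% of 133 on the other chromosomes (59.8 to 76.2), close to that of distal 19q. Of the 1667 intervals there, 1534 measured 10 to 30 kb. In DTP + TSA the broken share was 92% here, 91.4% on the rest of chromosome 19 and 72.9% on the other chromosomes. The inner gaps of the 61 intervals numbered 98 in DTP + TSA and 72 in DTP. Their median length was 1000 bp in each, and the longest measured 7.8 kb in DTP + TSA and 8.0 kb in DTP. Gaps of up to 2 kb made up 82.7% of them in DTP + TSA and 80.6% in DTP. When intervals within 5 kb of each other were joined in the persister lists, the broken share was 4.92% in DTP + TSA and 6.56% in DTP. No list held a gap under 800 bp, so most of these breaks were only little longer than the shortest gap the lists can show.

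The gaps of the 2 persister states coincided in part. Within the 61 Parental intervals, 280.4 kb were uncovered in DTP + TSA and 303.4 kb in DTP, and 163.8 kb were uncovered in both. This is 58.4% of the DTP + TSA gap and 54.0% of the DTP gap. On the rest of chromosome 19 the shared part was 69.7% of the DTP + TSA gap and 73.4% of the DTP gap, and on the other chromosomes 84.6% and 86.2%. The outer 2 kb at each Parental border were uncovered more often than the interior, 30.2% against 8.20% in DTP + TSA and 34.9% against 8.66% in DTP. The same held elsewhere. In DTP it was 45.2% against 25.1% on the rest of chromosome 19 and 63.0% against 43.3% on the other chromosomes. In DTP + TSA these values were 48.6% against 26.3% and 62.3% against 44.7%. Of 122 Parental borders, 59 had a border of a DTP + TSA interval within 1 kb (48.4%, 95% interval 39.2 to 57.6) and 54 a border of a DTP interval (44.3%, 35.3 to 53.5). On the rest of chromosome 19 the share was 38.01% in DTP + TSA, just below that interval, and 42.1% in DTP, within it. The other chromosomes had 28.9% in DTP + TSA and 29.1% in DTP.

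Parental marking was lost less often in distal 19q than elsewhere. A tile was called lower or higher when its cover differed by at least 20 percentage points. DTP was lower than Parental in 70 tiles (9.06% of the region, against 3.71% of all tiles outside it, of which few were marked at all). On the rest of chromosome 19 the share was 9.32%. Among tiles marked in Parental, DTP was lower in 53 of 305 (17.4%, 95% interval 13.30 to 22.1), against 61.3% outside the region. The share was 44.5% on the rest of chromosome 19, 62.9% in its zinc finger band 19p12 and 42.3% in 19q13.12 and 19q13.31 together, which hold zinc finger clusters too. At the same starting cover, tiles fully covered in Parental, DTP was lower in 27 of 219 (12.3%, 8.28 to 17.4), against 41.8% of 519 on the rest of chromosome 19, 57.1% of 268 in 19p12 and 57.9% of 1191 on the other chromosomes. It was lower in 35.9% of 117 in 19q13.12 and 19q13.31 together (27.2 to 45.3) and in 41.9% of 222 at the ends of other arms (35.3 to 48.7). These intervals count neighbouring tiles as separate, so they are no test between places. No replicate library tests this difference between places. Of the 219 tiles, 212 were marked in DTP + TSA and 211 in DTP.

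The 3 largest runs of loss in DTP against Parental lay at edges of common blocks or outside them. Common blocks were defined on cover averaged over these same libraries, which by itself works against a deep loss lying inside one. This placement therefore cannot show where losses tend to fall. The tiles of chr19:54100001-54130000 in 19q13.42 were covered to 6% in DTP + TSA, 3.33% in DTP and 98.7% in Parental, so that a nearly full stretch was almost empty in both persister states. Those of chr19:56980001-57030000 in 19q13.43 had 38.8% in DTP + TSA, 34.8% in DTP and 86% in Parental. Those of chr19:52320001-52360000, at the centromere-side edge of the first block, had 15.5% in DTP + TSA, 19.5% in DTP and 72.5% in Parental. By the blocks of Parental alone, the run starting at 54100001 lay inside a block, chr19:54060001-54130000. That block had 34.9% cover in DTP + TSA, 35.7% in DTP and 87.1% in Parental. The run starting at 56980001 lay within the Parental block chr19:56980001-57150000, at its centromere-side edge. Cover of that block was 74.4% in DTP + TSA, 74.2% in DTP and 94.8% in Parental. DTP was higher than Parental in 59 tiles (7.63%, against 6.66% outside), and in 57 of the 468 tiles unmarked in Parental (12.2%, against 6.76% outside and 10.0% on the rest of chromosome 19). The 3 largest runs of gain were all in 19q13.42. They lay at chr19:55530001-55550000 with 62% in DTP + TSA, 66% in DTP and none in Parental, at chr19:54920001-54940000 with 87%, 61% and 8%, and at chr19:56210001-56230000 with 60%, 41% and none in the same order of libraries.

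DTP + TSA and DTP differed little inside the blocks and more in the stretches between them. DTP + TSA was higher than DTP in 139 tiles (18.0%, against 3.47% outside) and lower in 26 (3.36%, against 2.75% outside). On the rest of chromosome 19, 13.5% were higher and 4.11% lower, and at the ends of other arms 14.6% and 1.85%. Of the 139 higher tiles, 123 lay among the 506 tiles between the common blocks and 16 among the 267 inside them. Of the 26 lower tiles, 11 lay between the blocks and 15 inside. A nearly full tile cannot rise by 20 points. Mean cover in DTP was 90.25% inside the blocks, which limits how many tiles there can be called higher. Between the blocks, over 5.06 Mb, cover was 21.1% in DTP + TSA, 10.3% in DTP and 9.55% in Parental. DTP + TSA thus covered 549 kb more than DTP between the blocks and 7.4 kb less inside them. The number of intervals between the blocks was 238 in DTP + TSA, 114 in DTP and 62 in Parental, and their median lengths were close at 3600 bp in DTP + TSA and 3200 bp in DTP. Because the blocks were defined with these libraries, the tiles were also classed by Parental alone. In the 305 tiles marked in Parental, mean cover was 85.0% in DTP + TSA and 84.9% in DTP, and 21 were higher and 19 lower with TSA. The high cover in DTP limits rises in these tiles too. In the 468 tiles unmarked in Parental mean cover was 18.8% in DTP + TSA and 7.26% in DTP. On the rest of chromosome 19, 14.1% of tiles unmarked in Parental were higher with TSA and 2.11% lower. At the ends of other arms these shares were 14.25% and 1.65%, and on the other chromosomes 3.12% and 2.48%. In distal 19q, 118 of the 468 were higher (25.2%) and 7 lower (1.5%) with TSA. With only as many of the strongest intervals in each library as the Parental list holds, DTP + TSA was higher than DTP in 9.18% of tiles and covered 1.55 times the DTP length between blocks, against 2.06 times with all intervals. In that setting DTP covered 0.672 times the Parental length between blocks, against 1.08 times with all intervals.

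The difference with TSA was spread over the region outside the blocks. DTP + TSA was higher than DTP in 14 of 16 windows of 500 kb, with differences of -0.36 to 16.8 points. By windows of 100 kb it was higher in 59 of 78 and lower in 17. Band 19q13.42, the poorest in zinc finger genes, had 32.6% cover in DTP + TSA, 21.1% in DTP and 21.2% in Parental, which is 1.55 times the DTP length. Band 19q13.41 had 57.2%, 51.6% and 55.7%, and band 19q13.43 had 47.1%, 43.3% and 44.4%, in DTP + TSA, DTP and Parental. Higher tiles numbered 70 of 270 in 19q13.42, 32 of 220 in 19q13.41 and 37 of 283 in 19q13.43. The stretch chr19:54030001-56870000, 2840 kb between blocks, had 21.1% cover in DTP + TSA, 9.09% in DTP and 7.52% in Parental. The first 950 kb, chr19:51400001-52350000, had 20.5% in DTP + TSA, 8.02% in DTP and 8.06% in Parental. The stretch chr19:57160001-57860000 differed less, with 25% in DTP + TSA, 17.8% in DTP and 15.1% in Parental, and so did the last 319 kb before the chromosome end, with 13.5%, 10.2% and 9.03%.

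**Figure D4:**
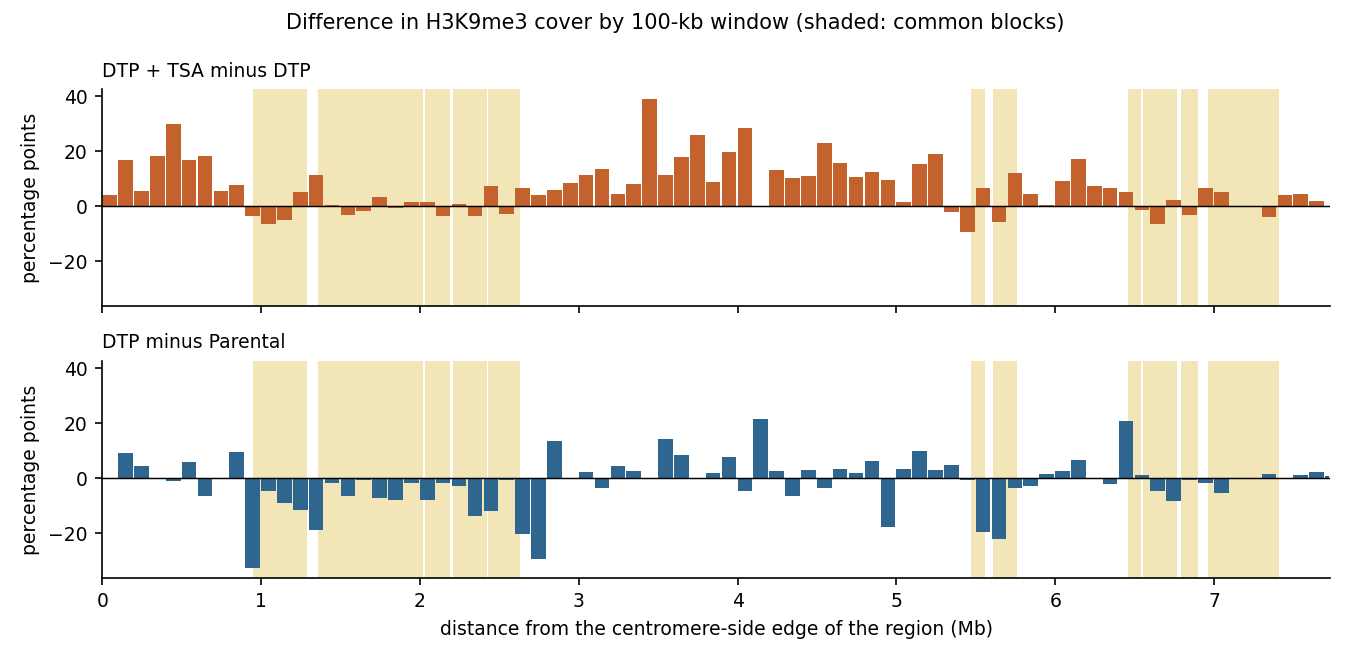
Difference in H3K9me3 cover (vertical axis, percentage points) by 100-kb window against distance from the centromere-side edge of the region (horizontal axis, Mb), for DTP + TSA minus DTP (top) and DTP minus Parental (bottom), with the common blocks shaded. The upper panel is above 0 in 59 of 78 windows, mostly unshaded ones, and reaches 39.0 points; the lower panel has its deepest value, -32.6 points, at the edge of the first block.

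The 3 largest runs of gain with TSA reached moderate cover over a few tiles each. The tiles of chr19:54820001-54880000 in 19q13.42 had 57.3% in DTP + TSA, 6% in DTP and 6.33% in Parental. Those of chr19:51960001-52010000 in 19q13.41 had 56% in DTP + TSA, 4% in DTP and 5.60% in Parental, and those of chr19:55100001-55150000 in 19q13.42 had 42% in DTP + TSA and none in DTP or Parental. The 3 largest runs of loss with TSA were smaller. The tiles of chr19:52310001-52330000 had 19% in DTP + TSA, 58% in DTP and 91% in Parental, so that cover next to the first block was lower in each persister library than in Parental. Those of chr19:56350001-56360000 had 10% in DTP + TSA, 74% in DTP and 54% in Parental, and those of chr19:54220001-54240000 had 31% in DTP and none in DTP + TSA or Parental. Of the 378 DTP + TSA intervals, 144 did not overlap any DTP interval, and 141 of these lay between the common blocks. They had a median length of 3000 bp, were at most 13.8 kb long, and 12 of them overlapped a Parental interval. Their mean signal ranked at the 37.6 percentile of the DTP + TSA list in the median, against 55.2 for all DTP + TSA intervals of the region. Neither trait was particular to the region. DTP + TSA intervals without a DTP overlap ranked at 37.4 on the rest of chromosome 19 and 41.6 on the other chromosomes. The share that did overlap DTP was 61.9% here, 60.9% on the rest of chromosome 19 and 66.5% on the other chromosomes.

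DTP + TSA set against Parental combined both differences. DTP + TSA was lower in 66 tiles (8.54%, against 3.82% outside) and higher in 158 (20.4%, against 7.26% outside). With only as many of the strongest intervals in each library as the Parental list holds, the balance turned, with 15.1% of tiles lower and 7.12% higher. With the full lists, DTP + TSA was lower in 9.57% of tiles and higher in 17.5% on the rest of chromosome 19. At the ends of other arms these shares were 3.52% and 19.6%. The comparison shares its DTP + TSA library with the one against DTP. The 3 largest runs of loss lay at chr19:52300001-52370000, with 30% in DTP + TSA, 34.9% in DTP and 79.1% in Parental, and in the runs starting at 54100001 and 56980001 named above. The 3 largest runs of gain were 2 of the runs gained with TSA, those starting at 54820001 and 55100001, and chr19:56180001-56230000 with 51.6% in DTP + TSA, 16.4% in DTP and none in Parental.

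The higher cover with TSA in weakly marked tiles was larger here than on the rest of chromosome 19, and it was also seen at other chromosome ends. Of the tiles unmarked in DTP, 129 of 487 were higher in DTP + TSA (26.5%, 95% interval 22.6 to 30.6), against 3.4% outside the region, 14.9% on the rest of chromosome 19 and 14.3% in stretches of the same length at the ends of the other arms. In the zinc finger band 19p12 it was 39 of 175 (22.3%, 16.4 to 29.2), which overlaps the interval of distal 19q. Of the tiles marked in DTP, 19 of 286 were lower (6.64%, 4.05 to 10.2), against 27.6% outside the region and 16.8% on the rest of chromosome 19. Tiles empty in DTP had a mean cover of 12.9% in DTP + TSA, against 6.17% on the rest of chromosome 19, 6.69% at the ends of other arms and 1.52% on the other chromosomes. Such tiles can only rise. In tiles empty in Parental, the mean difference of DTP + TSA from DTP was 11.1 points in the region. It was 5.75 on the rest of chromosome 19, 6.23 at the ends of other arms and 0.44 on the other chromosomes. In tiles unmarked in DTP, the gain of the region ranked 10 of 41 among chromosome arm ends, so other arms had larger gains. The place along the arm differed. Within 1 Mb of the chromosome end the mean gain in such tiles was 5.26 points on distal 19q and 9.17 on the other arms, and from 3 to 4 Mb it was 15.8 and 9.39. From 7 Mb to the edge of the region it was 16.1 on distal 19q and 2.05 on the other arms.

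**Figure D5:**
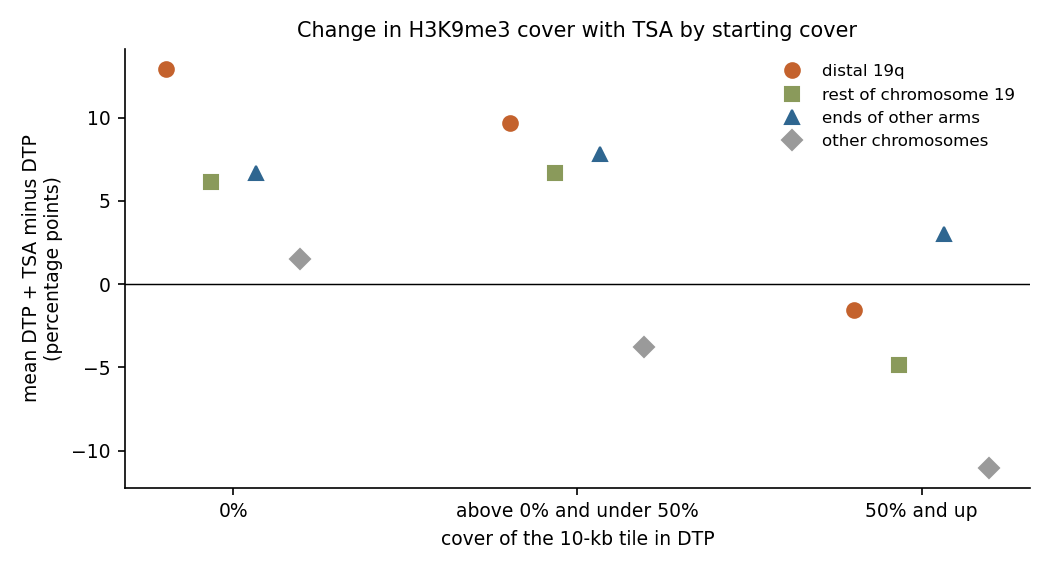
Mean difference in cover between DTP + TSA and DTP (vertical axis, percentage points) for 10-kb tiles grouped by their cover in DTP (horizontal axis), with 1 symbol each for distal 19q, the rest of chromosome 19, the ends of the other arms and all other chromosomes, which include those ends. Empty tiles of distal 19q gained 12.9 points, the most of the 4 sets, and tiles covered to 50% and up changed by -1.56 points there. Because DTP both groups the tiles and is the reference, an empty tile cannot fall and a nearly full one can hardly rise. The slope over the groups is thus partly built in.

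Signal within a library varied with interval length in the region. Spearman's rho between length and mean signal, across intervals of 1 library that share its depth, was 0.35 in DTP + TSA (378 intervals), 0.38 in DTP (228) and 0.46 in Parental (120). On the other chromosomes rho was -0.07, 0.04 and 0.01 in those libraries. The strongest intervals by mean signal were short. In DTP + TSA it was chr19:53221201-53225400 (4.2 kb), inside the 660-kb block, fully covered in DTP and Parental too. In DTP it was chr19:57346801-57354000 (7.2 kb), between blocks, with the same stretch covered in full in DTP + TSA and to 91.7% in Parental. In Parental it was chr19:56037601-56040800 (3.2 kb) in 19q13.42, which was covered to 87.5% in DTP + TSA and not at all in DTP. Of all intervals of the region, 26.2% in DTP + TSA, 36.0% in DTP and 53.3% in Parental lay above the 75th percentile of mean signal in their own list. The lists differ in length, so these ranks show no change between states.

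The 3 longest stretches without an interval in any library lay outside the blocks. They were chr19:51413801-51520200 (106.4 kb), chr19:56751401-56846800 (95.4 kb) and chr19:57377201-57450200 (73.0 kb). Whether reads can be placed uniquely in these stretches was not tested.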

How the data were processed

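The authors' deposited H3K9me3 lists give chromosome, start, end, summit, peak signal, mean signal and number of bins per interval, per the file headers; the signal values are the authors' own. Per the submitters' processing notes, the aligner BWA, the domain caller SICER and the builds hg19 and dm3 were involved; no version is listed. The input, scaling and calling threshold behind each list are not stated by the labels or headers. All ends lay on a 200 bp grid, and the smallest gap was 800 bp in each list. Of 8 samples, the 2 H3K4me3 and 3 input libraries were not analysed here.

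Cover per 10-kb tile was computed on the 200 bp grid. Coordinates are 1-based on hg19. Other arm ends were stretches of the same length at each arm's end, and ends of other arms are part of the other chromosomes, as 19p12 is part of the rest of chromosome 19. Bands came from circlize 0.4.16 (R 4.3.3), and intervals were handled in Python 3.11.15 (pandas 2.3.3, numpy 2.4.6, scipy 1.17.1; figures by matplotlib 3.10.9). The interval code was tested on made-up intervals and on the DTP list of chromosome 19 with known intervals removed. It returned the known answer in 11 of 11 checks. No sequence is printed, since no hg19 genome was used here.

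Named intervals were the 5 longest and the strongest by mean signal of each library, all common blocks, the 3 runs of called tiles with the largest loss and gain in each comparison, and the 3 longest stretches without an interval. Region, lists and rules were chosen with earlier results of these data known. Alternatives changed the share that marks a tile, the size of a call, tile size and offset, the intervals used, joining within 5 kb, bridging of a block by 1 tile, and the lengths and distances behind breaks and borders. Classing tiles by Parental, splitting by common block, matching tiles full in Parental and the 100-kb windows were chosen after seeing the data.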

Additional observations from a re-analysis of the deposited data

How the results depend on the processing

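Over 29 results, 124 alternative values were computed. Of these, 85 stayed within a wide margin of the reported value, 32 moved beyond it and 7 turned direction. That margin took in 444 marked tiles in DTP + TSA at 25% of a tile and 252 with the strongest intervals, against 342 reported. It also took in 26.6% of tiles higher in DTP + TSA than in DTP at 10 points, against 18.0% reported. With as many of the strongest intervals in each library as Parental holds, the interval number ratio was 1.18 for DTP over Parental and 1.575 for DTP + TSA over Parental. In that setting DTP + TSA covered 0.849 times the Parental length in the region and 1.04 times between blocks, and DTP covered 0.672 times the Parental length between blocks. The share of tiles lower was 5.30% for DTP + TSA against DTP, 14.7% for DTP against Parental and 15.1% for DTP + TSA against Parental, and the share higher was 9.18%, 3.75% and 7.12%. With the upper part of each list by mean signal, DTP + TSA over Parental was 0.948, DTP over Parental between blocks 0.949, and DTP + TSA over DTP inside blocks 1.01. Without short intervals DTP over Parental between blocks was 0.969. With intervals joined within 5 kb, DTP + TSA over DTP inside blocks was 1.02, and DTP + TSA was lower than Parental in 5.05% of tiles. At 10 points the share lower was 8.41% for DTP + TSA against DTP and 15.3% for each comparison with Parental. At 40 points it was 0.388% for DTP + TSA against DTP, 3.88% for DTP against Parental and 3.10% for DTP + TSA against Parental, and the share higher was 7.24%, 2.33% and 9.70%. With 20-kb tiles DTP was higher than Parental in 4.91% and DTP + TSA lower than DTP in 1.81%; with 5-kb tiles DTP + TSA was lower than DTP in 5.17%. Broken Parental intervals made up 4.92% in DTP + TSA and 6.56% in DTP after joining, 47.1% and 40% at a minimum of 5 kb, and 84.2% and 73.7% at 20 kb. Kept borders made up 37.7% in DTP + TSA and 31.1% in DTP within 400 bp, and 61.5% and 59.02% within 2 kb. The cause of these changes was not tested beyond what each setting removes or joins. DTP + TSA over DTP between blocks, reported as 2.06, was 1.55 to 2.22 in its alternatives. No paired analysis was possible because each state has 1 library. Depth is unknown, so no limit from it can be set.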
